A study of Mus musculus with 38 samples.

Results

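Prefrontal cortex (PFC) and hypothalamus (Hypo) were compared within Ube3a2X mice by RNA-seq of bulk tissue. Region and genotype in the labels selected 20 of the 38 libraries of the study, 10 from PFC and 10 from Hypo. Both regions came from the same animal in 9 mice (4 males and 5 females), and these 18 libraries formed the main, paired comparison. PFC of male 402 and Hypo of male 404 had no partner and entered only the check on all 20 libraries. All animals were adults of the FVB/NJ strain, 10 to 25 weeks of age. Ube3a2X mice were homozygous for a transgene that adds copies of Ube3a with a tag at the C terminus, so both regions of every mouse carried it. WT littermates without the transgene gave 18 libraries, of which 8 came from 4 mice with both regions (3 males and 1 female). The tag limits the model, since the ligase activity of C-terminally tagged Ube3a is debated. The regions also differed in handling. Hypo was excised with tweezers, extracted with the RNeasy Mini Kit and used at 1000 ng of RNA. PFC was taken as small punches from coronal slices, extracted with the RNeasy Micro Kit and used at 500 ng. These steps and the region cannot be told apart.

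The PFC is a layered cortical region in which most neurons are glutamatergic projection neurons, accompanied by local GABAergic interneurons. The hypothalamus is a ventral forebrain structure built from many small nuclei, whose neurons release peptide hormones and control feeding, fluid balance, stress, sleep and reproduction. Ube3a is an E3 ubiquitin ligase that is also described as a coactivator of steroid hormone receptors. In neurons the endogenous gene is imprinted and expressed from the maternal copy, while a transgene of this kind is active whichever parent transmits it.

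Levels are given as CPM (counts per M of counted reads), as the lowest, the median and the highest of the 10 libraries of a region. Differences are log2 fold changes of PFC minus Hypo from the paired fit over 9 mice, with their standard error (SE), so a positive value means a higher level in PFC. A gene passed the test at an adjusted p under 0.05 in the quasi-likelihood test of edgeR. A gene was tested if no more than 1 library had fewer than 100 reads in at least 1 of the regions. In bulk tissue, fewer cells of a type and less RNA per cell cannot be told apart.

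Ube3a (ENSMUSG00000025326, chromosome 7, 59228750 to 59311536, + strand, GRCm38) was measured first, because it checks the genotype labels. Ube3a ranged from 665.8 to 2257 CPM in PFC of Ube3a2X mice (median 1097) and from 728.2 to 1691 CPM in Hypo (median 1209). WT libraries held 190.7 to 268.9 CPM in PFC (median 231) and 108.8 to 352.2 CPM in Hypo (median 289.8). Every Ube3a2X library thus lay above every WT library, and within Ube3a2X mice the regions overlapped over most of their range. The log2 fold change between regions was -0.16 (SE 0.098, 95% interval -0.386 to 0.066, adjusted p = 0.166), with a lower level in PFC in 6 of 9 mice. Female 468 had the highest PFC level of all, and without this mouse the difference was -0.235 at an adjusted p of 0.0275. The Ube3a regional difference turned to 0.409 with RIN in the model (adjusted p = 0.19) and to 0.019 with 2 components of the quality measures (adjusted p = 0.944). In the 4 WT pairs the log2 fold change was -0.45. The difference between the genotypes in this contrast was 0.31 (SE 0.16, 95% interval -0.034 to 0.66, adjusted p = 0.871). The table counts reads on Ube3a from the endogenous gene and the transgene together, and reads of Snhg14, which runs antisense through the locus, can be told from Ube3a only if the counting used strand, which the methods do not state.

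**Figure D1:**
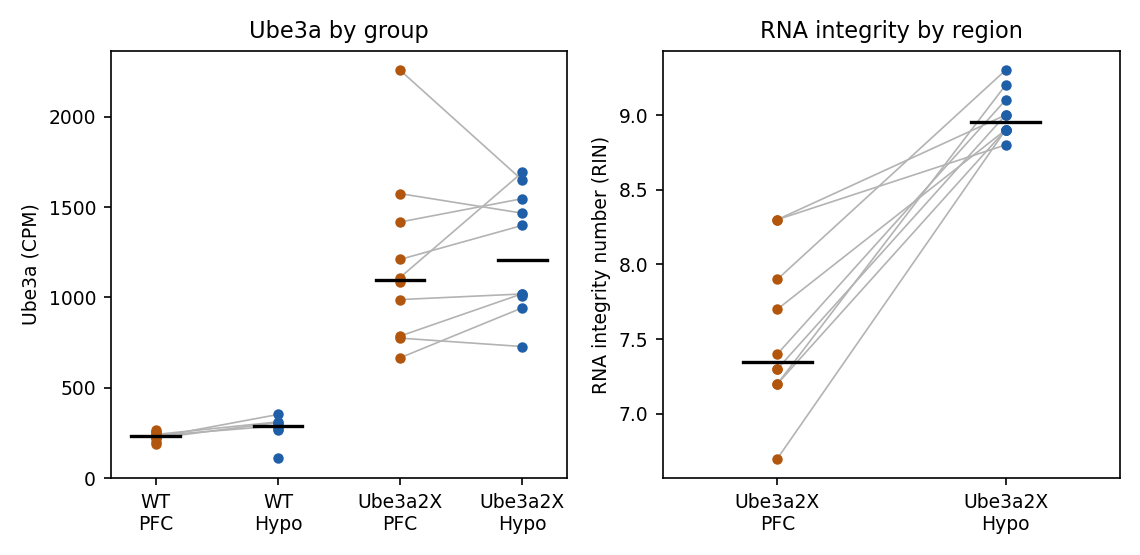
Left, Ube3a in CPM (linear axis) in WT and Ube3a2X libraries of PFC and Hypo; right, RNA integrity number (RIN) of the Ube3a2X libraries. Each point is a library, black bars are medians and grey lines join both regions of a mouse: all Ube3a2X libraries lie above all WT libraries for Ube3a (665.8 CPM or more against 352.2 CPM or less), and the RIN of PFC (6.7 to 8.3) does not overlap that of Hypo (8.8 to 9.3).

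Libraries matched their labelled region on 9 defining markers. The cortical markers were detected in all 20 libraries and were far higher in PFC. Slc17a7, the vesicular glutamate transporter of cortical neurons, had 1545, 1727 and 2022 CPM (lowest, median, highest) in PFC against 0.503, 1.34 and 3.09 CPM in Hypo. The cortical transcription factors Tbr1 (median 193.6 against 0.778 CPM), Neurod6 (138.8 against 1.8 CPM) and Emx1 (8.80 against 0.0730 CPM) did not overlap between the regions either. In Hypo, the peptide precursor Pmch had 189.3, 414.2 and 535.2 CPM against 0.106, 0.211 and 0.564 CPM in PFC. The hypothalamic transcription factors Otp (median 35.3 CPM), Nkx2-1 (25.9 CPM) and Sim1 (24.7 CPM) and the peptide precursor Hcrt (11.8 CPM) were present in each of the 10 Hypo libraries. In PFC, Sim1 was at 0 in 8 of 10 libraries, Hcrt in 5 and Nkx2-1 in 2, whereas Otp was found in all 10 at 0.111 CPM or less. No library carried the markers of the other region at a level near that of its own.

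**Figure D2:**
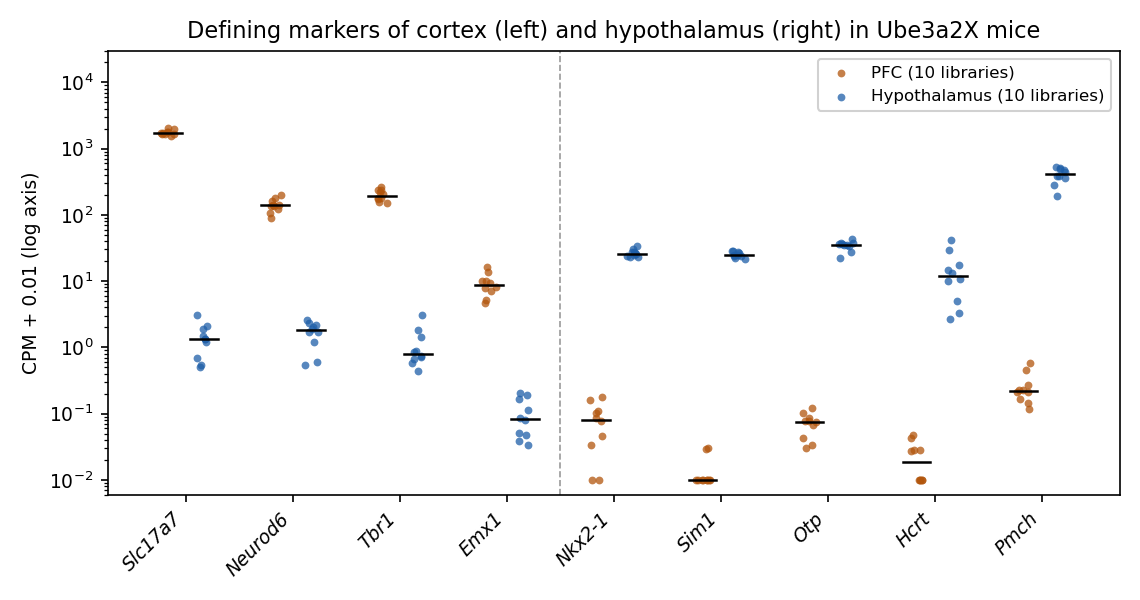
CPM + 0.01 on a log axis for 4 markers of cortex (left of the dashed line) and 5 of hypothalamus (right) in the 10 PFC and 10 Hypo libraries of Ube3a2X mice. Points are libraries and black bars medians; the regions do not overlap for any of the 9 genes, with Slc17a7 at medians of 1727 against 1.34 CPM and Pmch at 0.211 against 414.2 CPM.

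Of 14713 genes tested, 10270 differed between the regions, 4569 higher in PFC (31.1%) and 5701 higher in Hypo (38.7%). Differences beyond 2-fold, tested against that fold, were found for 977 genes in PFC (6.64%) and 1298 genes in Hypo (8.82%). All 20 libraries separated without overlap for 2614 genes higher in PFC (17.8%) and 2830 higher in Hypo (19.2%). The larger number in Hypo came with 1748 genes that passed the read minimum there alone, against 184 in PFC alone. Passing the read minimum in 1 region alone depends on the level there and on depth, so the direction of such a gene is not independent of the filter. Among the 12781 genes past the minimum in both regions, 33.9% were higher in PFC and 34.1% in Hypo, with a median log2 fold change of 0.004. The counts of each gene group below are therefore over its members past the minimum in both regions, and are read against these shares.

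RNA quality moved with the region. The RIN was lower in PFC in 9 of 9 mice (exact sign-flip permutation test, two-sided p = 0.003906, the smallest that 9 pairs allow), and the share of intronic bases was 3.06% to 4.29% in PFC against 4.19% to 9.52% in Hypo. With RIN in the model, 4980 genes passed the test, and 4909 of the 10270 (47.8%) were kept, all in the same direction. Over genes past the minimum in both regions, 2165 were then higher in PFC (16.9%) and 1789 in Hypo (14%). Because the RIN ranges do not overlap, region and RIN cannot be told apart, and a call lost with RIN in the model is named beside its gene below. Another fit took, in place of RIN, the first 2 components of base shares (coding, UTR, intronic, intergenic), coverage evenness, end bias, aligned reads and AT dropout. With these quality components 5869 genes passed. Named calls lost there include those of Cux2, Nr4a2, Agrp, Cdkn1c, Mag, P2ry12 and Rgs5, which passed with RIN. After removal of every library's trend against GC content and transcript length, the split turned to 6284 genes higher in PFC and 4828 in Hypo, and the median over all genes moved from -0.06 to 0.08. Depth ranged from 36.89 to 65.5 M counted reads in PFC and from 44.7 to 380.8 M in Hypo. The PFC libraries of female 468 and male 258 had the most uneven coverage, and the Hypo library of male 238 stood apart from the other Hypo libraries. Without mice 258 and 468 the test passed 10590 genes, and without mouse 238 it passed 10505.

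The genes that differed most firmly from a 2-fold change were led in PFC by Dkk3, a secreted protein of the Dickkopf family, at 587.1, 678.8 and 759.4 CPM against 87.9, 94.2 and 101.8 CPM in Hypo (log2 fold change 2.80, SE 0.050, adjusted p = 2.81e-12). The same group held Ddn, a protein of dendrites and postsynapses (5.24, SE 0.11), the transcriptional repressor Zbtb18 (3.56, SE 0.071), the neuronal gene Vxn (4.82, SE 0.11) and the secreted Dkkl1 (5.42, SE 0.11). Gabrd, the delta subunit of extrasynaptic GABA-A receptors, had a median of 45.4 CPM in PFC against 1.02 CPM in Hypo (5.40, SE 0.12). Among genes past the minimum in both regions, the 5 largest values were that of Ddn and those of the immediate early gene Egr3 (5.90, SE 0.16), Ankrd33b (5.56, SE 0.15), the potassium channel gene Kcnh3 (5.48, SE 0.15) and the peptide gene Cck (5.14, SE 0.25). For each of these 10 genes the lowest PFC library lay above the highest Hypo library. The ranking used the test against 2-fold, whereas the adjusted p values printed here and in the next paragraph are of the test against no difference.

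In the direction of Hypo the firmest differences were those of Igsf1, an immunoglobulin superfamily protein of the pituitary-thyroid axis, and the imprinted gene Peg10. Igsf1 had 137.7, 152.6 and 183.7 CPM in Hypo against 1.46, 2.02 and 3.0 CPM in PFC (-6.32, SE 0.10, adjusted p = 2.66e-12). Peg10 had 624.3, 709.6 and 923.8 CPM against 22.8, 26.3 and 34.6 CPM (-4.65, SE 0.078, adjusted p = 2.66e-12). Agt, which encodes angiotensinogen and is made by astrocytes in the brain, followed at medians of 182.3 against 3.15 CPM (-6.07, SE 0.10). Arhgap36 (-8.19, SE 0.16), Tmem255a (-3.89, SE 0.070) and Otp (-9.19, SE 0.17) belonged to the same group. Large values among genes past the minimum in both regions were those of AW551984 (-5.82), Slc17a6, the vesicular glutamate transporter of subcortical neurons (-5.37, SE 0.11), the antioxidant enzyme Gpx3 (-5.36, SE 0.15), the synaptic organizer Cbln1 (-5.09, SE 0.15), and the imprinted Zim1 (-4.69, SE 0.15) and Peg10. No Hypo library of these genes was as low as the highest PFC library. All genes named so far as passing the test passed it with RIN in the model too.

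Transcription factors that set cortical neuron identity were higher in PFC as a group. Of 25 such genes, 19 passed the read minimum in both regions, and 15 of them were higher in PFC and 2 in Hypo, with a median log2 fold change of 2.03 (15 and 1 with RIN in the model). Mef2c, which acts in the maturation of cortical neurons, had 955.3, 1132 and 1733 CPM in PFC against 37.5, 42.8 and 52.5 CPM in Hypo (4.74, SE 0.12, adjusted p = 1.90e-11). The factors of deep-layer neurons Fezf2 (3.99, SE 0.16) and Bcl11b (2.28, SE 0.12) and the upper-layer factor Cux2 (1.69, SE 0.13) did not overlap between regions. The members higher in Hypo were Nr4a2, a nuclear receptor also found in dopaminergic cells (-0.86, SE 0.16, adjusted p = 0.00034), and Foxp2 (-0.69, SE 0.23, adjusted p = 0.0183), a factor of deep-layer and many subcortical neurons. Both overlapped between regions, and Foxp2 did not pass with RIN in the model (-0.09, adjusted p = 0.932) or without the pairing on the 18 libraries (regional difference of Foxp2 -0.52, adjusted p = 0.0624), but passed without it on all 20 (-0.68, adjusted p = 0.0339). Neurod2 passed the minimum in PFC alone, with medians of 72.8 against 0.773 CPM.

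Of 42 factors that pattern hypothalamic nuclei, 26 passed the minimum in Hypo alone, 11 in both regions and 5 in neither. Their summed level was nonetheless higher in PFC, at 933.7 to 1285 CPM against 772.5 to 860.3 CPM in Hypo. Of this sum, Arnt2 alone gave 658.1 to 931.0 CPM in PFC and 296.6 to 359.9 CPM in Hypo. The sum thus rests largely on this gene and does not describe the list as a whole. Foxb1, a factor of the mamillary hypothalamus, had no read in any of the 10 PFC libraries, against 7.70, 21.5 and 32.2 CPM in Hypo. With a floor of 3 reads over the 9 paired PFC libraries, Foxb1 was at least 3384-fold higher in Hypo. Six6 was likewise without a read in PFC and at least 1665-fold higher in Hypo (9.86 to 17 CPM). Sim1, a factor of paraventricular neurons, had 2 reads over the 9 PFC libraries, and its ratio of Hypo to PFC was 5728 (exact counting interval 1585 to 47300). These bounds and intervals cover counting error only. Isl1 (median 23.3 CPM) and Nr5a1, a factor of the ventromedial nucleus (14.6 CPM), were at medians of 0 and 0.0292 CPM in PFC. Fits with a quality covariate could not separate Foxb1 and Six6 because PFC held no read (adjusted p = 1 with RIN in the model).

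Among the 11 hypothalamic factors past the minimum in both regions, 5 were higher in PFC (45.45%) and 4 in Hypo (36.36%). Over all genes past the minimum in both regions these shares were 33.9% and 34.1%, so the counts single out neither region. With RIN in the model the counts were 4 and 2. Meis2, which is also a factor of striatal and cortical neurons, had 114.3, 135.3 and 180.0 CPM in PFC against 3.20, 5.40 and 15.1 CPM in Hypo (4.48, SE 0.25). Lhx6, which also marks cortical interneurons, was higher in PFC by 2.57 (SE 0.15), as was Arnt2 by 1.25 (SE 0.060). Zfhx3, a factor with a role in the suprachiasmatic clock, was higher in Hypo at 46.5, 55.7 and 61.3 CPM against 3.76, 4.58 and 7.89 CPM (-3.45, SE 0.14), as was Onecut2 (-1.59, SE 0.11).

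Neuropeptide genes divided the regions by the peptide. Of 40 genes, 13 passed the minimum in both regions, 14 in Hypo alone and 2 in PFC alone. Among the 13, 8 were higher in Hypo and 4 in PFC, with a median of -1.06 (7 and 2 with RIN in the model). Avp, the precursor of vasopressin, had 41.3, 77.5 and 135.0 CPM in Hypo and 0.0742 CPM or less in PFC (-11.64, SE 0.25, adjusted p = 6.97e-12). Oxt, the precursor of oxytocin, had 2.78, 24.6 and 51.3 CPM in Hypo and no more than 0.0394 CPM in PFC, with 4 reads over the 9 PFC libraries. The lowest Oxt value was that of Hypo male 238, and the next was 12.6 CPM. Trh, which drives the thyroid axis, had medians of 92.0 against 1.40 CPM (-5.98, SE 0.28), and Ghrh, which drives growth hormone release, of 7.0 against 0.0192 CPM (-7.50, SE 0.35).

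Among the precursors of feeding peptides, Pomc and Cartpt of the satiety-promoting arcuate neurons had medians of 39.5 against 0.405 CPM (-6.86, SE 0.36) and of 48.6 against 0.689 CPM (-5.96, SE 0.41). Agrp of the hunger-promoting neurons had 2.14, 3.92 and 6.27 CPM in Hypo against 0.132, 0.433 and 0.668 CPM in PFC (-3.27, SE 0.30, adjusted p = 9.93e-07). Hcrt of the wake-promoting orexin neurons spanned 2.68 to 42.0 CPM among the Hypo libraries. Gal had 15, 37.0 and 41.2 CPM in Hypo against 0.242 CPM or less in PFC (-8.49, SE 0.33). None of these peptides overlapped between the regions. Past the minimum in both regions, Tac1, the precursor of substance P (-2.38, SE 0.11), and the granin Scg2 (1171 against 186.0 CPM, -2.62, SE 0.076) were higher in Hypo.

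Cck, Vip and Npy, which mark classes of cortical interneurons, were higher in PFC. Cck had 114.6, 212.7 and 354.1 CPM in PFC against 1.94, 6.04 and 6.85 CPM in Hypo. Vip had 56.4, 70.6 and 101.5 CPM against 1.99, 17.6 and 27.7 CPM (2.49, SE 0.39, adjusted p = 0.000107), and Npy, which the arcuate nucleus also makes, 34.2, 60.2 and 69.5 CPM against 7.35, 12 and 22.3 CPM (2.20, SE 0.21, adjusted p = 1.82e-06). These 3 genes did not overlap between regions. Sst overlapped, at 40.2, 104.7 and 162.3 CPM in PFC and 17.1, 52.5 and 76.3 CPM in Hypo (0.87, SE 0.32, adjusted p = 0.028), and the call on the regional difference of Sst was lost when any of mice 267, 272 and 417 was left out (adjusted p = 0.0586 to 0.0636). Crh, the releasing factor of the stress axis, was higher in PFC at a median of 4.19 against 1.11 CPM (1.79, SE 0.27). With RIN in the model, Vip (1.90, adjusted p = 0.187), Sst (0.44, adjusted p = 0.736) and Crh (1.29, adjusted p = 0.220) did not pass.

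**Figure D3:**
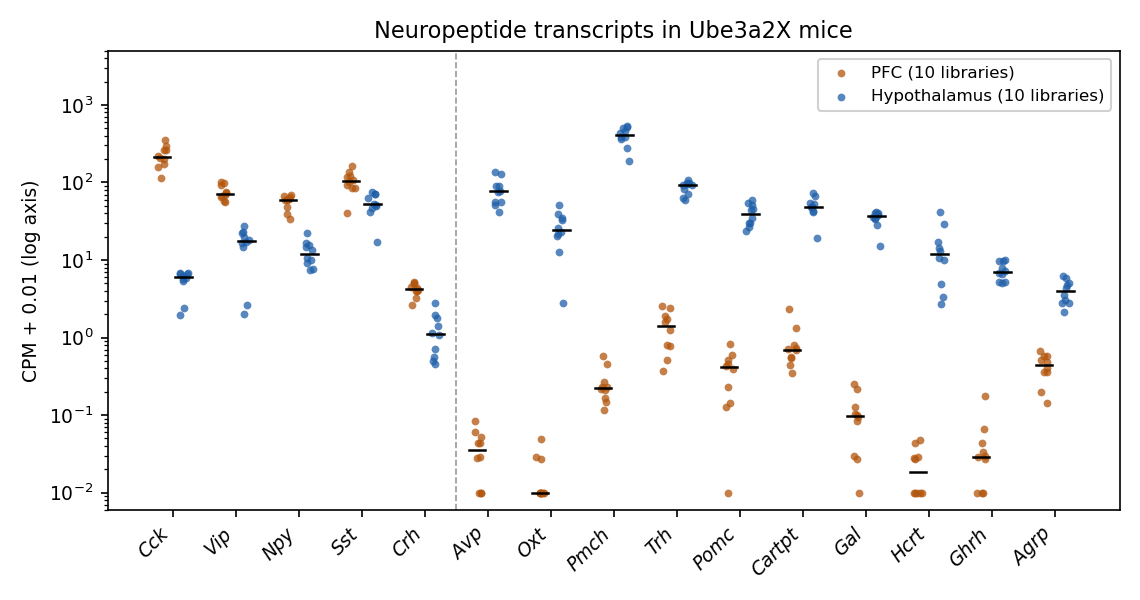
CPM + 0.01 on a log axis for 15 neuropeptide genes in the 10 PFC and 10 Hypo libraries of Ube3a2X mice. Points are libraries and black bars medians; the 5 genes left of the dashed line have their higher median in PFC (Cck at 212.7 against 6.04 CPM) and the 10 genes right of it in Hypo (Pmch at 414.2 against 0.211 CPM), and only Sst and Crh overlap between the regions.

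Markers of the pituitary, which lies below the hypothalamus, had a higher summed level in Hypo than in PFC. The summed level of 15 pituitary genes was 192.0 to 1085 CPM in Hypo (median 260.3) and 68.3 to 149.3 CPM in PFC (median 104.2). Hormone genes of the pituitary varied widely among the Hypo libraries. Prl, which encodes prolactin, ranged from 0.132 to 732.4 CPM (median 49.8) and Gh, which encodes growth hormone, from 0 to 194.1 CPM (median 24.9). Cga, the common alpha subunit of glycoprotein hormones, was steadier at 12.2, 15.1 and 26 CPM in Hypo, with 3 reads over the 9 PFC libraries. Pomc is made by both tissues. The part of pituitary tissue in the Hypo values of these genes was not tested.

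Of 34 genes of transmitter synthesis and transport, 19 passed the minimum in both regions, 6 higher in PFC and 9 in Hypo (3 and 6 with RIN in the model). The vesicular glutamate transporters exchanged places, Slc17a7 at 1727 against 1.34 CPM and Slc17a6 at 10.6 against 411.5 CPM (medians of PFC against Hypo). Of the GABA-synthesizing enzymes, Gad1 had 311.5, 374.4 and 465.0 CPM in PFC and 253.3, 342.6 and 387.8 CPM in Hypo, a log2 fold change of 0.19 (SE 0.082, adjusted p = 0.054) that was -0.05 with RIN in the model. The regional difference of Gad1 passed under 10 alternatives, among them DESeq2 (0.24, adjusted p = 0.00758), RLE factors (0.24, adjusted p = 0.0158), limma-voom (0.19, adjusted p = 0.04998), both fits without the pairing (adjusted p = 0.0453 and 0.0355), the GC and length correction (0.32, adjusted p = 0.00993) and without mouse 272 or mouse 468 (adjusted p = 0.042 and 0.0153). Gad2 was higher in Hypo at medians of 419.5 against 242.3 CPM (-0.70, SE 0.097), a call lost with RIN in the model (-0.41, adjusted p = 0.274). The glial GABA transporter Slc6a11 was higher in Hypo at 971.6, 1063 and 1220 CPM against 140.8, 203.1 and 290.5 CPM (-2.48, SE 0.11).

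Several genes of monoamine synthesis and transport had far higher levels in Hypo. Hdc, which makes histamine and marks tuberomamillary neurons, had 44.1, 60.9 and 79.5 CPM in Hypo against 0.0503, 0.185 and 0.396 CPM in PFC (-8.31, SE 0.23, adjusted p = 3.47e-11). The vesicular monoamine transporter Slc18a2 had medians of 70.3 against 0.403 CPM (-7.18, SE 0.40). Th and Ddc, enzymes of dopamine synthesis, had medians of 28.9 against 1.70 CPM (-4.11, SE 0.36) and of 63.6 against 3.13 CPM (-4.44, SE 0.11), and Ache, which breaks down acetylcholine, of 175.0 against 45.5 CPM (-2.13, SE 0.14). All 5 genes separated the 20 libraries without overlap.

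Markers of cortical interneuron classes were higher in PFC for 13 and in Hypo for 6 of 22 genes past the minimum in both regions, with a median of 0.45 (9 and 3 with RIN in the model). Lamp5, of neurogliaform and also projection cells, had 179.4, 227.9 and 305.6 CPM in PFC against 5.73, 10.2 and 13.9 CPM in Hypo (4.62, SE 0.14). Pvalb, of fast-spiking cells, had 30.9, 50.2 and 67.6 CPM against 6.71, 11 and 13 CPM (2.12, SE 0.16). Calb2, which also marks many thalamic and hypothalamic neurons, went the other way at 5.30, 11.2 and 24.2 CPM in PFC against 138.8, 180.9 and 208.2 CPM in Hypo (-4.06, SE 0.23).

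**Figure D4:**
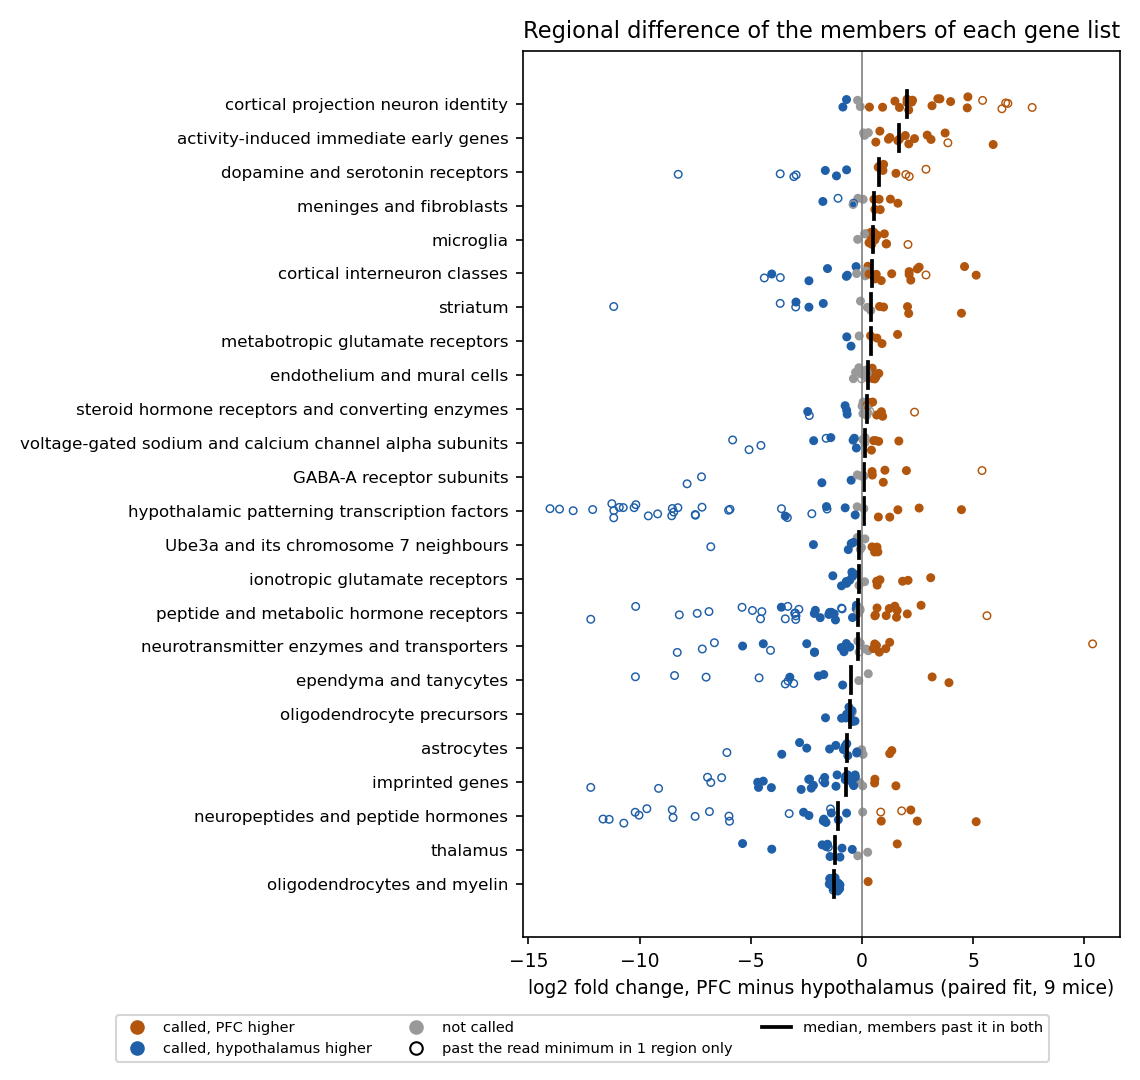
Log2 fold changes (PFC minus Hypo, paired fit over 9 mice) of the tested members of 24 gene lists, each list a row, ordered by the median. Filled points are members past the read minimum in both regions, open points in 1 region only, orange and blue mark members that passed the test in the direction of PFC and Hypo, grey those that did not, and black bars are medians over filled points, from 2.03 for cortical projection neuron genes to -1.24 for myelin genes.

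Receptors for peptides and metabolic hormones showed both directions. Of 51 genes, 25 passed the minimum in both regions, and 10 of these were higher in PFC and 12 in Hypo (7 and 8 with RIN in the model). A further 18 passed it in Hypo alone. Calcr, the calcitonin and amylin receptor, had 32.9, 36.1 and 42.1 CPM in Hypo and 3 reads over the 9 PFC libraries, a ratio of 5861 (exact counting interval 2006 to 28420). The ghrelin receptor Ghsr had medians of 12.1 against 0.0191 CPM, the incretin receptor Glp1r of 27.1 against 0.601 CPM, the melanocortin receptor Mc3r of 8.29 against 0.365 CPM and the vasopressin receptor Avpr1a of 6.18 against 0.268 CPM, each without overlap. The leptin receptor Lepr differed less, at 5.75, 7.49 and 11.8 CPM in Hypo against 1.48, 3.03 and 5.98 CPM in PFC (-1.25, SE 0.18), as did the melanocortin receptor Mc4r (-0.91, SE 0.12). Both overlapped between regions, and neither passed with RIN in the model (adjusted p = 0.421 and 0.115). Npy2r, through which NPY restrains transmitter release, was higher in Hypo (37.6 against 3.37 CPM, -3.62, SE 0.13).

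Other peptide receptors were higher in PFC. The VIP receptor Vipr1 had 33.1, 36.5 and 59.3 CPM in PFC and 0.467, 0.719 and 1.21 CPM in Hypo. The cholecystokinin receptor Cckbr had 54.1, 64.9 and 98.2 CPM against 9.05, 10.3 and 12 CPM (2.66, SE 0.079, adjusted p = 4.66e-11), and the CRH receptor Crhr1 had medians of 19.9 against 6.10 CPM (1.59, SE 0.12). None of the 3 overlapped between regions.

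Steroid hormone receptors are of interest here because Ube3a acts with them. Over 18 genes of steroid receptors, coactivators and converting enzymes past the minimum in both regions, 9 were higher in PFC and 4 in Hypo (5 and 2 with RIN in the model, but 2 and 4 with the quality components). Esr1, which encodes estrogen receptor alpha, had 18.4, 26.7 and 34.3 CPM in Hypo against 2.74, 5.20 and 6.44 CPM in PFC (-2.44, SE 0.11, adjusted p = 1.86e-09). Greb1, an estrogen-induced gene, had 5.28, 10.3 and 13.9 CPM against 1.30, 1.66 and 3.0 CPM (-2.37, SE 0.21). The glucocorticoid receptor Nr3c1 (0.24, SE 0.080, adjusted p = 0.019) and the mineralocorticoid receptor Nr3c2 (0.28, SE 0.099, adjusted p = 0.0213) were higher in PFC by small amounts with overlap. Without mice 258 and 468 the regional difference of Nr3c1 was 0.12 (adjusted p = 0.0595) and the regional difference of Nr3c2 was 0.14 (adjusted p = 0.0861), and without mouse 258 alone that of Nr3c2 was 0.23 (adjusted p = 0.0522).

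Glutamate receptor genes differed in composition. Of 17 ionotropic subunits past the minimum in both regions, 7 were higher in PFC and 8 in Hypo, with a median of -0.13. With RIN in the model these were 5 and 2 genes and the median was 0.22. Grin2a, an NMDA receptor subunit of mature cortical synapses, had 246.2, 292.3 and 436.7 CPM in PFC against 30.5, 35.2 and 42.4 CPM in Hypo (3.10, SE 0.092, adjusted p = 5.34e-11). Grin2b (1.83, SE 0.13), Gria3 (2.08, SE 0.085) and Gria2, the AMPA receptor subunit that limits calcium entry (0.67, SE 0.096), were higher in PFC without overlap. Grin2d was higher in Hypo at 24.4, 27.5 and 36.0 CPM against 9.45, 11.8 and 15 CPM (-1.31, SE 0.11). Gria1 was slightly higher in Hypo (-0.35, SE 0.072) and did not pass with RIN in the model (adjusted p = 0.639). Among 7 metabotropic receptors 4 were higher in PFC, with Grm3 in the lead (1.6, SE 0.12), and 2 in Hypo (2 and 0 with RIN in the model).

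GABA-A receptor subunits differed between the regions in composition too. Gabrq and Gabre, which encode the theta and epsilon subunits, had 138.7, 154.8 and 181.2 CPM and 41.3, 49.7 and 57.3 CPM in Hypo, against 1.75 CPM or less and 0.306 CPM or less in PFC (-7.22, SE 0.21, and -7.86, SE 0.19). Gabrd was the counterpart in PFC, as given above. Of 11 subunits past the minimum in both regions, 5 were higher in PFC and 2 in Hypo (5 and 1 with RIN in the model). Gabra4 led in PFC at 165.6, 197.6 and 246.5 CPM against 43.8, 47.9 and 54.3 CPM (2.0, SE 0.079), and Gabrg1 in Hypo at 134.9, 165.6 and 188.0 CPM against 35.8, 45.1 and 75.9 CPM (-1.8, SE 0.13). None of these 4 genes overlapped between regions.

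Among dopamine and serotonin receptors past the minimum in both regions, 5 of 8 were higher in PFC and 3 in Hypo (3 and 2 with RIN in the model). Htr2a had 58.7, 75 and 136.7 CPM in PFC against 25.0, 28.3 and 32.7 CPM in Hypo (1.53, SE 0.13). Htr2c was higher in Hypo at 76.8, 104.6 and 137.5 CPM against 32.0, 50.3 and 78.7 CPM (-1.14, SE 0.11), with overlap and without a call once RIN was in the model (adjusted p = 0.0817). Drd2, an inhibitory dopamine receptor, had medians of 15.7 CPM in Hypo against 1.23 CPM in PFC (-3.68, SE 0.092), and Drd1 of 12.8 CPM in PFC against 6.93 CPM in Hypo (0.97, SE 0.13; adjusted p = 0.0561 with RIN in the model). Of 13 sodium and calcium channel alpha subunits past the minimum in both regions, 5 were higher in each region (4 in PFC and 3 in Hypo with RIN in the model). The sodium channel Scn9a was mainly found in Hypo (73.9 against 1.17 CPM, -5.82, SE 0.15), and Scn8a was higher in PFC at 449.8, 513.1 and 924.9 CPM against 149.7, 168.2 and 218.0 CPM (1.66, SE 0.11).

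Immediate early genes, which neurons switch on with activity, were higher in PFC for 13 of 16 members past the minimum in both regions and higher in Hypo for none, with a median of 1.65. With RIN in the model 4 passed, all higher in PFC, and the median was 1.02. Arc, which acts at active synapses, spanned 39.3 to 671.0 CPM among PFC libraries (median 126.6) and 7.81 to 15.5 CPM in Hypo (3.74, SE 0.39, adjusted p = 3.15e-06). Egr1 had 118.0, 313.1 and 645.7 CPM against 11.1, 40.7 and 79.7 CPM (2.94, SE 0.24), and Homer1 201.4, 393.1 and 508.6 CPM against 32.7, 40.2 and 53.9 CPM (3.11, SE 0.12). Arc, Egr1 and Homer1 did not overlap between regions, unlike Nr4a1 (2.37, SE 0.27). Fos gave medians of 20.2 CPM in PFC and 20.8 CPM in Hypo (0.29, SE 0.33, adjusted p = 0.451). Egr3, Egr1 and Homer1 passed with RIN in the model, whereas Arc (2.90, adjusted p = 0.0617) and Nr4a1 (1.5, adjusted p = 0.140) did not. The summed level of the 19 genes on the list spanned 691.6 to 3150 CPM among PFC libraries and 171.0 to 399.2 CPM among Hypo libraries.

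Imprinted genes, which are expressed from the copy of a single parent, lay mostly on the side of Hypo. Ube3a, itself imprinted in neurons, was counted with its chromosome 7 neighbours and is not in this list. Of 30 members past the minimum in both regions, 25 were higher in Hypo and 3 in PFC, with a median of -0.73 (17 and 1 with RIN in the model). A further 6 passed the minimum in Hypo alone. Peg3, a paternally expressed zinc-finger gene, had 1797, 2005 and 2352 CPM in Hypo against 340.1, 373.6 and 549.6 CPM in PFC (-2.36, SE 0.083, adjusted p = 2.19e-10). Nnat had 377.7, 577.2 and 660.0 CPM against 20.3, 31.1 and 45.5 CPM (-4.07, SE 0.17), and Zim1 had medians of 105.0 against 4.15 CPM. Dlk1, a ligand related to those of Notch, had 272.8, 294.8 and 333.6 CPM in Hypo and no more than 1.0 CPM in PFC (-9.15, SE 0.20). Its neighbour Meg3, a long noncoding RNA, had 1495, 2607 and 4703 CPM against 827.9, 1137 and 1469 CPM (-1.17, SE 0.13) and missed the threshold with RIN in the model (adjusted p = 0.0551). No member named here as higher in Hypo overlapped between regions.

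The members higher in PFC were Cdkn1c, a maternally expressed cell-cycle inhibitor, Snrpn and Igf2. Cdkn1c had 4.92, 8.72 and 14.2 CPM in PFC against 1.66, 3.06 and 3.27 CPM in Hypo (1.53, SE 0.18). Igf2, a growth factor that meningeal cells make in the adult brain, spanned 23.6 to 120.4 CPM in PFC and 32.9 to 43.6 CPM in Hypo (0.58, SE 0.17, adjusted p = 0.00807), overlapped, and did not pass with RIN in the model (adjusted p = 0.0746). Summed over 12 markers of meninges and fibroblasts, of which Igf2 is 1, PFC held 124.3 to 546.1 CPM and Hypo 255.1 to 359.0 CPM. The part of meningeal tissue in the level of Igf2 was not tested.

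**Figure D5:**
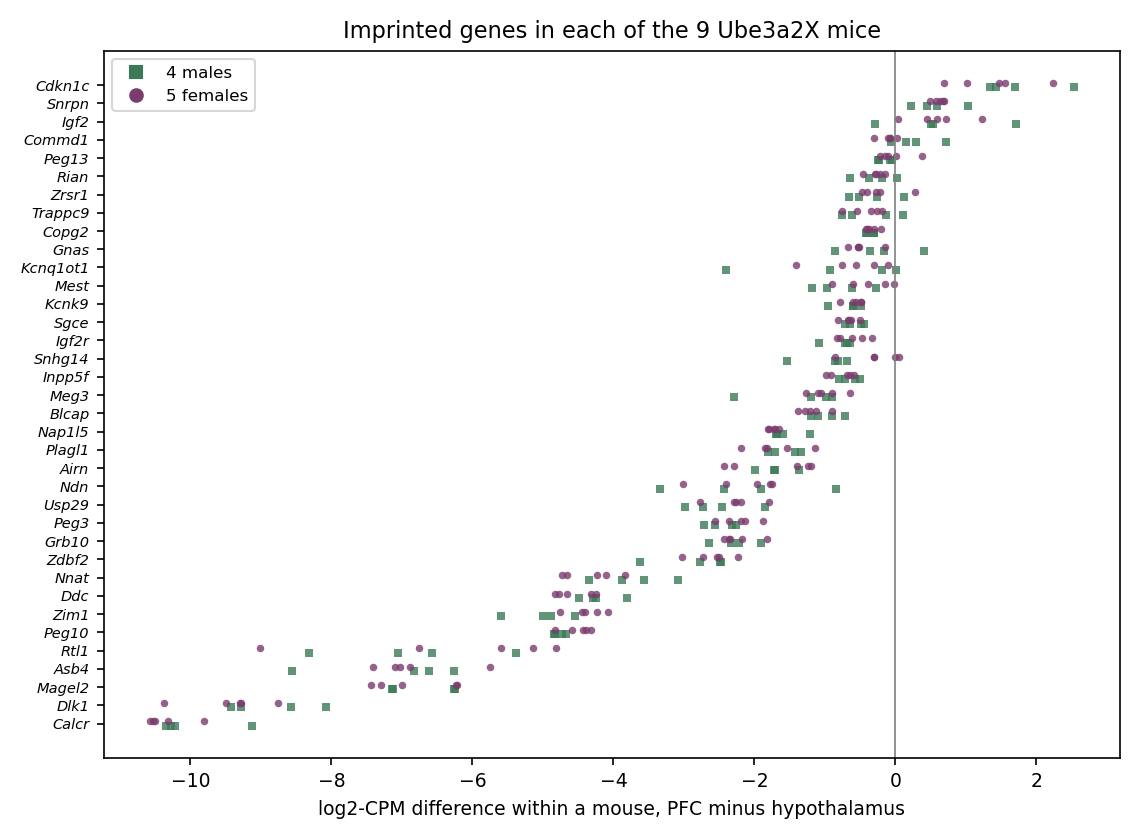
Difference in log2-CPM (PFC minus Hypo) of the 36 imprinted genes tested, with 1 point for each of the 9 Ube3a2X mice (green squares males, purple circles females), ordered by their value. Points left of the grey line are higher in Hypo: Calcr and Dlk1 have the lowest means, and Cdkn1c and Snrpn are right of the line in all 9 mice.

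The genes beside Ube3a on chromosome 7 included members of either direction. Of 14 genes of this region past the minimum in both regions of the brain, Ube3a included, 4 were higher in PFC, 4 in Hypo and 6 did not pass. These shares, 28.57% each, were near those of all genes past the minimum in both regions (33.9% and 34.1%). The counts were 3 and 1 with RIN in the model, and 4 and 7 without mice 258 and 468. Ndn and Magel2, paternally expressed genes of the same protein family that act in hypothalamic neurons, were higher in Hypo. Ndn had 326.1, 598.3 and 685.8 CPM in Hypo against 62.3, 155.6 and 182.3 CPM in PFC (-2.18, SE 0.22, adjusted p = 2.66e-06), and Magel2 59.4, 63.1 and 83.0 CPM against 0.331, 0.650 and 0.798 CPM (-6.80, SE 0.17). Snrpn, which encodes a spliceosomal protein from the paternal copy, was higher in PFC at 740.1, 972.2 and 1073 CPM against 512.2, 637.8 and 673.9 CPM (0.57, SE 0.075), a call lost with RIN in the model (adjusted p = 0.122). Snhg14, whose transcript includes the antisense of Ube3a, had 131.5, 165.7 and 255.0 CPM in Hypo against 79.1, 95.0 and 159.5 CPM in PFC (-0.61, SE 0.14, adjusted p = 0.00217). Its regions overlapped, and with RIN in the model it did not pass (-0.20, adjusted p = 0.725).

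Myelin genes were higher in Hypo. Of 18 members past the minimum in both regions, 17 were higher in Hypo and 1 in PFC, with a median of -1.24 (9 and 0 with RIN in the model, 5 and 0 with the quality components). Mag had medians of 138.7 CPM in Hypo against 45.9 CPM in PFC (-1.45, SE 0.18). It overlapped, with 115.1 CPM in PFC of male 238 and 110.8 CPM in Hypo of male 404. PFC of male 238 also had the highest summed level of the myelin list in PFC, 4277 CPM against 1398 to 3412 CPM in the others. Mbp had 1404, 1602 and 1867 CPM against 484.8, 757.8 and 1571 CPM, overlapped, and did not pass with RIN in the model (-1.05, SE 0.16, adjusted p = 0.0791 with RIN). The member higher in PFC was Enpp2, a secreted lipid enzyme that other cells also make (0.28, SE 0.050, adjusted p = 0.195 with RIN). Oligodendrocyte precursor genes were higher in Hypo for 10 of 11 members by smaller amounts (median -0.52), with Pdgfra at -0.44 (SE 0.12). With RIN in the model Lhfpl3 alone passed (-1.64 without RIN).

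Astrocyte genes differed in both directions, mostly towards Hypo. Past the minimum in both regions, 11 of 16 were higher in Hypo and 2 in PFC, with a median of -0.66 (7 and 1 with RIN in the model). Gfap, a filament of fibrous and reactive astrocytes, had 298.1, 363.7 and 590.3 CPM in Hypo against 31.7, 60.6 and 100.4 CPM in PFC (-2.81, SE 0.15), and Itih3 had medians of 489.7 against 40.4 CPM (-3.61, SE 0.15). The glutamate transporter Slc1a2 was higher in PFC at 3875, 4451 and 8754 CPM against 1805, 2066 and 2438 CPM (1.25, SE 0.13). The 3 genes did not overlap between regions, and the summed level of the astrocyte list did (6085 to 13100 CPM in PFC, 7043 to 8348 CPM in Hypo).

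Microglial genes were higher in PFC for 14 of 16 members past the minimum in both regions and higher in Hypo for none, with a median of 0.52 (4 and 0 with RIN in the model, 3 and 2 with the quality components, 13 and 1 without mice 258 and 468). P2ry12, a purinergic receptor of surveying microglia, had 40.5, 50.2 and 86.2 CPM in PFC against 23.2, 25.2 and 28.1 CPM in Hypo (1.09, SE 0.11). Cx3cr1 had 44.6, 69.5 and 99.7 CPM against 36.1, 40.3 and 48.8 CPM (0.67, SE 0.090), with overlap and an adjusted p of 0.0547 with RIN in the model. The phagocytic receptor gene Fcrls passed the minimum in PFC alone (4.30 against 1.09 CPM). Endothelial and mural genes were higher in PFC for 9 of 17 members and in Hypo for none (median 0.30), and with RIN in the model the pericyte gene Rgs5 alone passed (0.76 without RIN). With the quality components their median turned to -0.241, with 0 members higher in PFC and 1 in Hypo.

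Markers of other tissues that a dissection could include were read for the whole lists. Thalamic markers were higher in Hypo for 9 and in PFC for 1 of 12 members, and their summed level was 839.1 to 980.0 CPM in Hypo against 273.4 to 413.4 CPM in PFC. That list holds Slc17a6 and Calb2, which hypothalamic neurons also express. Ependymal genes past the minimum in both regions were higher in Hypo for 4 and in PFC for 2 of 8 members, and Foxj1, the factor of motile cilia, had 9.01, 11 and 13.9 CPM in Hypo against 0.792, 1.0 and 1.59 CPM in PFC (-3.45, SE 0.15). Choroid plexus genes had no member past the minimum in both regions and summed to 117.0 to 145.8 CPM in Hypo against 5.27 to 8.41 CPM in PFC. Striatal genes were higher in PFC for 5 and in Hypo for 3 of 11 members (543.8 to 652.0 CPM against 410.4 to 468.0 CPM), and olfactory bulb genes were higher in PFC for 2 of 4 (186.7 to 292.1 CPM in PFC, 148.2 to 208.8 CPM in Hypo). The summed level of the olfactory bulb list did not set PFC of female 462 apart (292.1 CPM, against 291.3 CPM in PFC of male 238). This library stood apart on 3 genes of the list, singled out after their values were seen. It had 33.4 CPM of Cdhr1 against 13.4 CPM or less in the other PFC libraries, 12.1 CPM of Doc2g against 2.25 CPM or less, and 5.69 CPM of Eomes against 2.89 CPM or less. Among meningeal genes 6 of 10 were higher in PFC and 2 in Hypo, and among blood genes 3 of 4 were higher in Hypo. Both pituitary genes past the minimum in both regions were higher in Hypo. With RIN in the model, thalamic genes were higher in Hypo for 5 and in PFC for 1, meningeal genes in PFC for 2 and in Hypo for 0 (0 and 1 with the quality components), and no blood or pituitary gene passed, whereas the ependymal counts were 4 and 2 as before. The striatal counts were then 3 in each region, and 1 olfactory bulb gene was higher in PFC. The part of these tissues in the differences between PFC and Hypo was not tested.

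The sexes were compared for the regional difference, as the value in males minus that in females. By edgeR 0 of 14713 genes passed (0%), against 901 genes at an unadjusted p under 0.05, 0 by limma-voom and 34 by DESeq2. The smallest p was that of Gabrq (-1.15, adjusted p = 0.157), whose level was higher in Hypo in all 9 mice. Ccdc42, a gene of sperm tails, came next (-1.61, SE 0.23, adjusted p = 0.157), with a regional difference of -0.86 in males and 0.80 in females at low levels of 0.864 to 2.50 CPM. Among positive values the smallest p was that of the ribosomal gene Rpl9 (0.70, SE 0.12, adjusted p = 0.411), and Rpsa was the fifth (0.59, SE 0.11, adjusted p = 0.450). Genes of this family have processed copies elsewhere in the genome that can share reads. Leaving out any mouse left the count at 0, and without the pairing Gabrq and Ccdc42 passed. On simulated data the edgeR fit of sex by region recovered 10.4% of 1.5-fold and 47.8% of 2-fold changes. The count therefore does not exclude differences of that size.

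Ube3a2X and WT mice were compared for the regional difference over 13 mice with both regions. By edgeR 0 of 15047 genes passed (0%), against 877 genes at an unadjusted p under 0.05, 0 by limma-voom and 25 by DESeq2. The smallest p values were those of Coro6, a coronin of the actin cytoskeleton, and Col11a1, a fibrillar collagen. Coro6 differed by 0.06 between regions in Ube3a2X mice and by 1.22 in WT mice (difference -1.14, SE 0.18, adjusted p = 0.180). Col11a1 was higher in Hypo in both genotypes, at -3.23 in Ube3a2X and -2.14 in WT mice (difference -1.07, SE 0.18, adjusted p = 0.180). Among positive values Umodl1 (1.59, SE 0.28, adjusted p = 0.199) and the neuropeptide receptor Npbwr1 (0.88, SE 0.18, adjusted p = 0.277) came first, both higher in Hypo in either genotype. On simulated data the edgeR fit of genotype by region recovered 20.9% of 1.5-fold and 76.1% of 2-fold changes. The absence of calls therefore does not exclude differences of that size.

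Several of the genes above, picked as examples, had close regional values in the WT pairs. Slc17a7 was at 10.38 in Ube3a2X and 9.76 in WT mice, Slc17a6 at -5.37 and -5.41, Dkk3 at 2.80 and 2.93, Grin2a at 3.10 and 3.19, Peg10 at -4.65 and -5.02, Gabrq at -7.22 and -7.75, and Esr1 at -2.44 and -2.95. Igf2 had opposite signs, 0.58 in Ube3a2X and -0.49 in WT mice, and Vip was at 2.49 and 1.49. Of the 10195 genes called in Ube3a2X mice and tested in both sets, 8738 were also called in the 4 WT pairs, which is 85.7% of these and 88.5% of the 9870 called in WT mice, where 68% of all genes tested were called. Of the shared genes, 8733 differed in the same direction and 5 in the opposite direction. The 5 genes, singled out after their values were seen, were Cacna1g (-0.34 in Ube3a2X and 0.26 in WT mice), Chrnb3 (-0.49 and 1.34), Kcnq1ot1 (-0.75 and 0.61), Miat (-0.57 and 0.24) and Vwa5b2 (-0.46 and 0.41), and the difference between the genotypes passed the edgeR test for none of them. With the quality components that of Kcnq1ot1 passed (-1.34, adjusted p = 0.0298). The WT pairs are 3 males and 1 female, so sex and genotype are not balanced in this comparison.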

How the data were processed

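Stranded, paired-end mRNA libraries of PFC and Hypo were made by the authors in a single batch. STAR aligned the reads to GRCm38, featureCounts assigned them to Gencode v24 genes, and the deposited table holds raw counts for 54165 genes, with no normalization or filter. The deposited quality table, made by the authors with Picard, gives the RIN and AT dropout as a score, shares of bases and strand as a fraction (printed here as percent) and evenness of coverage and end bias as a ratio. In it, the row of a WT PFC library carries 2 different mouse numbers, and this row was not used here.

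Genes with fewer than 100 reads in more than 1 library of both regions were left out, which kept 14713 genes. The paired fit used edgeR 4.0.16 in R 4.3.3 (TMM, mouse as a block, glmQLFit with robust estimation, glmQLFTest, and glmTreat for 2-fold), with Benjamini-Hochberg adjustment over all genes tested and a threshold of 0.05. Sex by region was fitted on the same 18 libraries, and genotype by region on 26 libraries of 13 mice. CPM used TMM factors over all 38 libraries, and log2-CPM a prior count of 2. A coordinate is that of GENCODE vM21 on GRCm38. Figures were drawn with matplotlib 3.10.9 in Python 3.11.15. Quality measures were compared with exact sign-flip permutation tests over 9 mice, adjusted over 12 measures.

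The mouse number in the titles pairs the libraries of an animal. The correlation of deviations within a mouse was -0.477 to 0.154 over the 9 mice. In none of them was the Hypo library that correlated best with the PFC library that of the same mouse, so the pairing rests on the titles. Libraries of a region differed by 13.9 to 361.5 times the sampling noise of reads.

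The comparison and the 28 gene lists were chosen with earlier results of these data known. Named are Ube3a, in each direction 8 genes by smallest p against 2-fold, the 5 largest differences per direction among genes past the minimum in both regions, up to 4 leading members per direction of each list and members whose role is explained, and the 5 smallest p per direction for sex and genotype by region, apart from gene models without a name and some left out for length. The alternatives were DESeq2 1.42.0, limma-voom (limma 3.58.1), RLE factors, other filters, RIN or the first 2 components of the quality measures as covariates, no block or a random block, all 20 libraries, and each mouse left out. A fit with the trend on GC content and length removed, another with the deepest library thinned and a fit without mice 258 and 468 were added after the data were seen. The edgeR fits of region, sex by region and genotype by region were tested on simulated data. The region fit recovered 80.6% of 1.5-fold and 97% of 2-fold changes. The sex by region fit recovered 10.4% of 1.5-fold, 47.8% of 2-fold and 95.5% of 4-fold changes. For genotype by region these shares were 20.9%, 76.1% and 90.9%. The sex and genotype fits thus missed most 1.5-fold changes. Some genes that the rule selects are not reported here.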

Additional observations from a re-analysis of the deposited data

Results flagged for a closer look

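In each region, 140 genes, 13 summed marker lists and 12 quality measures were screened for a library that stood apart from the other 9 by Dixon's criterion for 10 values, 330 values in all. It marked 43 of them, and chance alone gives about 1 in 20. The values of a library are not independent, and the causes were not tested.

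Hypo of male 238 accounted for most of the marks in Hypo. It was lowest for Oxt (2.78 CPM against 12.6 to 51.3 in the other 9), Cartpt (19 CPM), Gal (15 CPM), Sst (17.1 CPM), Gpx3 (234 CPM), Ndn (326.1 CPM), Snrpn (512.2 CPM), Nnat (377.7 CPM), Cdkn1c (1.66 CPM) and Gh (0 CPM). It was highest for Pdgfra (122.6 CPM), Scn8a (218 CPM), Nr3c2 (40.8 CPM) and the endothelial and mural list (481.6 CPM). Its share of UTR bases (35.9%) was the lowest and its unevenness of coverage (0.533) the highest of the Hypo libraries.

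Hypo of male 404, which has no PFC partner, was lowest for the mamillary factor Foxb1 (7.70 CPM against 17.9 to 32.2) and for Cux2 (21.9 CPM), and highest for Bcl11b (21.7 CPM), Npy2r (47.0 CPM) and the striatal list (468 CPM). Hypo of male 258 had the lowest Gad2 (263.8 CPM) and the highest Fezf2 (2.60 CPM) and Magel2 (83.0 CPM). Hypo of female 420 was the deepest library, at 480.5 M aligned pairs and 380.8 M counted reads, and had the lowest Slc18a2 (55.9 CPM). Dkkl1 was highest in Hypo of female 462 (1.32 CPM), and the microglial list lowest in Hypo of female 468 (375.8 CPM).

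PFC of female 468 was highest for Zbtb18 (696 CPM), Mef2c (1733 CPM), Grin2a (436.7 CPM), Scn8a (924.9 CPM) and Peg3 (549.6 CPM), had no read of Pomc or Avpr1a (0 CPM), and was the shallowest PFC library at 54.3 M aligned pairs. PFC of male 258 was lowest for Sst (40.2 CPM) and Snrpn (740.1 CPM) and highest for the choroid plexus list (8.41 CPM). Lhx6 was highest in PFC of male 238 (29.4 CPM) and Vipr1 in PFC of female 420 (59.3 CPM). PFC of male 402, which has no Hypo partner, held 124.3 CPM of the meningeal list against 328.3 to 546.1 CPM in the other 9.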

How the results depend on the processing

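The number of genes that differed between regions stayed within 1.5 times the main count under DESeq2, limma-voom, RLE factors, thinning, the GC and length correction, all fits without or with a random block, and each mouse left out, and fell with a quality covariate. It was 4980 with RIN and 5869 with the quality components (2335 and 2833 higher in PFC, 2645 and 3036 higher in Hypo). Without a filter, 8588 genes were higher in Hypo. Past 2-fold, 1340 genes (611 in PFC, 729 in Hypo) were found with RIN, 1459 (740 in Hypo) with the quality components, 4210 (1605 in PFC, 2605 in Hypo) without a filter, and 1977 in Hypo with filterByExpr, which tests more genes. The pairing was dropped in 2 fits: without the replicate block 10695 genes passed on the same 18 libraries and 10819 on all 20. Leaving out the block on the 18 libraries changed no other named call than those of Foxp2, Gad1 and sex by region.

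Sex by region gave 34 genes with DESeq2, 2 without the replicate block (Ccdc42 and Gabrq), 7 on all libraries without it, 1 with the mouse as a random block (Ccdc42) and 1 (Col25a1) under the GC and length correction. Genotype by region gave 25 with DESeq2, 4 with the quality components (Cdh13, Col11a1, Coro6 and Kcnq1ot1) and 2 (Col11a1 and Coro6) under the GC and length correction. The Ube3a regional difference was 0.409 with RIN (adjusted p = 0.190), 0.019 with the quality components, -0.277 without mice 258 and 468 (adjusted p = 0.0127), and -0.235 to -0.064 when each mouse was left out. It passed the test only without mouse 468 and without mice 258 and 468.

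Besides Ube3a, signs turned for Gad1 with RIN (-0.050) and the quality components (-0.102), for Fos with RIN (-0.178), and with the quality components for Foxp2 (0.957) and Snhg14 (0.257), none of them past the threshold there. With the quality components the calls of Cux2, Nr4a2, Agrp, Vip, Crh, Mc4r, Nr3c1, Nr3c2, Gria1, Htr2c, Meg3, Cdkn1c, Igf2, Mbp, Mag, Enpp2, Cx3cr1, P2ry12 and Rgs5 were lost, besides those of Foxb1 and Six6, where PFC held no read. A random block lost those of Nr3c1 and Igf2, and no filter that of Sst. List medians moved by more than the SD of that median among the 9 mice with RIN for ionotropic (0.217) and metabotropic glutamate receptors (0.775), GABA-A subunits (0.566), channels (0.424), chromosome 7 neighbours (0.413) and microglia (0.231). With the quality components they moved for transmitter genes (-0.442), interneurons (0.229), steroid genes (-0.033), ionotropic receptors (0.159), astrocytes (-1.043), myelin (-0.720), microglia (0.160), endothelium (-0.241), ependyma (-0.903) and striatum (-0.003), with the variance filter for interneurons (0.722), and under the GC and length correction for imprinted genes (-0.563). Within that SD, medians still turned sign under the GC and length correction for ionotropic receptors (0.039) and chromosome 7 neighbours (0.031), with the quality components for chromosome 7 neighbours (0.138), and without mice 258 and 468 for hypothalamic factors (-0.033, and 0.327 with RIN). Oligodendrocyte precursors were at -0.809 with RIN and -0.247 with the quality components. Lists with 4 members or fewer past the minimum in both regions were not checked against that SD. Of these, the olfactory bulb list turned from a median of 0.169 to -0.004 with the quality components. The cause was not tested. The WT arm has 4 pairs, and RIN cannot be told apart from region.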
